A study of Mus musculus with 59 samples.

Results

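Brown adipose tissue (BAT) of wild-type (WT) mice was compared between 24 h and 12 h after a single injection of thyroid hormone (TH). The comparison rests on 8 of the 59 mice of the series, 4 at 24 h (B24, B26, B27 and B28) and 4 at 12 h (B19, B20, B21 and B23), chosen by the label that gives the time after TH. All were male C57BL/6J mice of 8 to 12 weeks that had been made hypothyroid with propylthiouracil (PTU) in their food, which blocks hormone synthesis in the thyroid, before T3 and T4 were injected together. PTU-fed mice without TH, and mice at 3 h and 6 h after TH, 4 in each group, were fitted with them. Total RNA of the whole tissue was sequenced, with each library made from 1 mouse. The comparison asks which mRNAs still moved during the second 12 h of the response. The sources used here do not give the clock time of injection or collection, so that hours after TH, time of day and time since feeding cannot be told apart for any result below, clock genes included. In bulk RNA, fewer cells of a type and less RNA per cell cannot be told apart either.

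TH acts through nuclear receptors, which bind DNA near their target genes and switch from repression to activation when T3 is bound. In BAT, T3 is known for its part in thermogenesis, in which uncoupling protein 1 (Ucp1) lets mitochondria turn the energy of fatty acids into heat, and for raising fat synthesis and fat burning together. BAT also runs a circadian clock. In this loop the activators Bmal1 (gene Arntl) and Clock or Npas2 switch on the Per, Cry, Rev-erb and PAR bZIP genes, whose products in turn repress the activators or drive daily rhythms of metabolism.

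The total count per mouse ranged from 7805938 to 13023856 at 12 h (median 10824886) and from 9594449 to 12680927 at 24 h (median 10921748.5). A gene was tested when its mean normalized count, a count scaled to the same effective library size in every mouse, was above 10 over the 20 WT mice. This left 13003 of the 55341 listed genes. Brown adipocyte markers were abundant in every mouse, with summed normalized counts of 214300 to 295800 at 12 h and of 177500 to 266100 at 24 h over 11 markers. A library feature that moved with time concerned skeletal muscle. The 18 muscle markers summed to 5063, 371, 79.8 and 1018 normalized counts in B19, B20, B21 and B23 at 12 h and to 4215, 18210, 12330 and 11980 in B24, B26, B27 and B28 at 24 h, against 1062 to 10570 in PTU controls. The times overlapped, since B19 at 12 h exceeded B24 at 24 h, and B20 and B21 held the lowest sums. None of the 18 markers was at 0 in all 4 mice of either time, and all 18 had a positive log2 fold change (median 2.70). Of the 18, 7 were called higher at 24 h (38.9%, against 5.58% of all genes tested). A pair of further fits, added after these values were seen, therefore stand beside the results, one with the mean log2 level of the muscle markers as a covariate and one without B20 and B21. The muscle level differed between the times, so the covariate shares part of the contrast with time. For a call lost with it, muscle RNA and a less precise estimate cannot be told apart. What part muscle RNA had in the results was not tested beyond these fits. Mitochondrially encoded genes took 50.7% ± 1.05 of all counts at 12 h and 45.9% ± 4.93 at 24 h (SD, n = 4 each), which was not past the threshold (exact permutation test, two-sided, p = 0.143, where 70 arrangements allow no p below 0.0286). Without B24 the difference was -6.909 percentage points and that smallest p was reached.

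Between 12 h and 24 h, 1480 genes were called at an adjusted p under 0.05 (11.4% of those tested), of which 726 were higher at 24 h (5.58%) and 754 were lower (5.8%). A fit of only the 8 compared mice called 790, 458 higher and 332 lower, so that the share of calls that were higher was 58% in place of 49.1%. At least 2-fold changes made up 383 of the calls (2.95% of genes tested), 248 higher and 135 lower, and the median size of a called change was 0.82 among higher and 0.579 among lower genes on the log2 scale. The 4 mice of each time did not overlap for 1109 of the called genes (8.53% of genes tested) and for 1778 genes whether called or not (13.7%). The median log2 fold change over all tested genes was 0.017. Relative to PTU controls, 3346 genes were called at 12 h (25.7%) and 4252 at 24 h (32.7%), contrasts that share mice with the main one. With the muscle covariate 383 genes were called (2.95%), 187 higher and 196 lower, of which 363 were among the 1480. When B20 and B21 were left out, 512 genes were called, 229 higher and 283 lower. Of the 1480, 602 were called in each of the 8 fits that left out 1 of the compared mice. The total dropped most without B21 (889), B19 (940) or B28 (948).

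**Figure D1:**
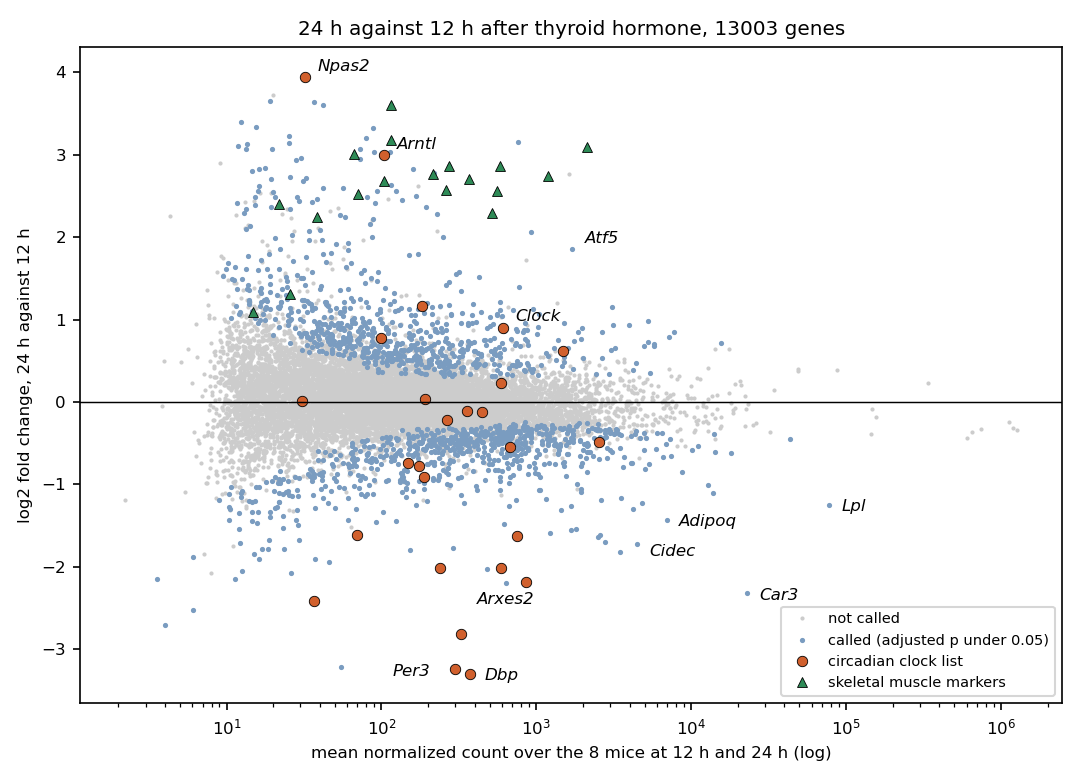
Each point is 1 of 13003 genes, with its mean normalized count over the 8 mice on a log axis and its log2 fold change at 24 h against 12 h, blue where called. Clock genes (orange circles) hold both the largest increase shown, Npas2 at 3.95, and the largest decrease, Dbp at -3.30, while all 18 skeletal muscle markers (green triangles) lie above 0.

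The circadian clock list held the largest share of called genes among the 34 lists of pathways and functions. Of its 26 members, all tested, 15 were called (57.7%, against 11.4% of all genes), 3 higher and 12 lower at 24 h, with a median log2 fold change of -0.52 against 0.017 for all genes. The 3 that rose were the activators Arntl, Clock and Npas2. The 12 that fell included the repressors Per2, Per3, Cry2, Ciart and Bhlhe41, the Rev-erb gene Nr1d2, and the PAR bZIP factors Dbp, Tef and Hlf. With the muscle covariate 3 members were still called higher and 8 lower, the same counts as without B20 and B21, and 12 of the 15 were called whichever of the compared mice was left out.

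Among the DNA letters that clock proteins are known to bind, the E-box CACGTG (Bmal1 with Clock or Npas2), the D-box TTATGTAA (Dbp, Tef and Hlf) and the half-site AGGTCA (Rev-erb and related receptors) were looked for on both strands from 250 bases before to 50 after the annotated start of each gene. RefSeq promoter sequences (GRCm38.p6) were matched for 20 of the 26 clock genes. An E-box lay in 5 of the 20 (25%), against 7.15% of 32851 promoters, a D-box in 1 (5%, against 0.938%) and a half-site in 5 (25%, against 16.3%). A clock gene was counted when any of its promoters held the letters, whereas the 32851 were counted as single promoters. The shares are therefore of unlike units, which favours clock genes with several promoters. The genes with an E-box were Ciart, Bhlhe41 and Tef, which fell, and Per1 and Cry1, which were not called. Those with a half-site were Nr1d2, which fell, Arntl and Clock, which rose, and Per1 and Nfil3, which were not called. These are matches of letters, not shown binding sites. The bases upstream of 4 called genes are printed because these genes were among those that fell, with the E-box of Ciart and Bhlhe41, the D-box of Per3 and the half-site of Nr1d2 in capitals. They run 5′ to 3′ on the minus strand, and end where the GENCODE gene begins.
Ciart (chr3:95882252-95882478): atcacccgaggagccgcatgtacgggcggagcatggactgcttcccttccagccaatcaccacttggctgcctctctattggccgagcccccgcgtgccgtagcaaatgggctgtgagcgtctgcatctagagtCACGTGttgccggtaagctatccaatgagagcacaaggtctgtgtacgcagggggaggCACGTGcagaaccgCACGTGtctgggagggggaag
Bhlhe41 (chr6:145865559-145865670): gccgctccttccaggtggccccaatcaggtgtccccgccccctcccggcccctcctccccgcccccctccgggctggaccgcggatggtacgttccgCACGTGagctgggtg
Per3 (chr4:151044666-151044915): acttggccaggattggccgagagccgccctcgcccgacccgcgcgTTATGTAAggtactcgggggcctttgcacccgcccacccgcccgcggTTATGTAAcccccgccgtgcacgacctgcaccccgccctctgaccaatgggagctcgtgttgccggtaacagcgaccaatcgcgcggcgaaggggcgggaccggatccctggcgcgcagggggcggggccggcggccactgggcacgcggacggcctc
Nr1d2 (chr14:18239128-18239356): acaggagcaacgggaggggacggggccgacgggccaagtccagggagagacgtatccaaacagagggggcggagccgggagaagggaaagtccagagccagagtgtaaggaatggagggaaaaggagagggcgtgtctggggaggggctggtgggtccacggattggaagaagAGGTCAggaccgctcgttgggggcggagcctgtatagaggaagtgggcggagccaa
The E-boxes of Ciart began 116, 58 and 44 bases before its RefSeq start, that of Bhlhe41 began 153 bases before, the D-boxes of Per3 began 205 and 158 bases before, and the half-site of Nr1d2 began 77 bases before. The printed matches did not overlap one another.

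Arntl (chromosome 7, 113207465 to 113314126, plus strand), which encodes Bmal1, held normalized counts of 8.16, 8.25, 12.0 and 72.4 in B19, B20, B21 and B23 at 12 h and of 174, 152, 194 and 217 in B24, B26, B27 and B28 at 24 h. All 4 mice at 24 h were above all at 12 h, where B23 stood far above the other 3, and the level at 24 h was 7.98-fold that at 12 h (log2 fold change 3.00, SE 0.51, adjusted p = 0.000845). Without B23 the log2 fold change was 4.26. Npas2, a partner of Bmal1 like Clock, was at 6.12, 1.38, 5.46 and 1.54 at 12 h and 29.9, 25.3, 117 and 72.0 at 24 h, in the same order of mice. It was low in every mouse at 12 h and spread widely among mice at 24 h, without overlap (log2 fold change 3.95, SE 0.76, adjusted p = 0.00214). Clock rose by less, from 427 ± 88.1 to 796 ± 154 (mean ± SD, n = 4; log2 fold change 0.90, SE 0.17, adjusted p = 0.00158). Relative to PTU controls, where Arntl was at 169 ± 56.4, its log2 fold change was -2.86 at 12 h (adjusted p = 0.00026) and 0.14 at 24 h (adjusted p = 0.822). Npas2 stood at -4.37 at 12 h (adjusted p = 0.000149) and -0.43 at 24 h (adjusted p = 0.531) by the same measure. These contrasts share the mice of 12 h and 24 h with the main one.

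The repressor Per3 (chromosome 4, 151003652 to 151044665, minus strand) had normalized counts of 560, 614, 669 and 331 at 12 h and 66.9, 57.8, 45.5 and 60.2 at 24 h. Every mouse at 24 h was below every mouse at 12 h, at a level 9.48-fold lower (log2 fold change -3.25, SE 0.35, adjusted p = 1.48e-05). Per2, which works with the Cry proteins in repression, was at 514, 502, 569 and 715 at 12 h and 34.6, 42.1, 149.5 and 91.5 at 24 h. It did not overlap either, and its 24 h values spread more than those of Per3 (log2 fold change -2.82, SE 0.37, adjusted p = 7.83e-05). Of the Cry genes, Cry2 fell from 220.3 ± 31.4 to 129.5 ± 24.8 (mean ± SD, n = 4; log2 fold change -0.77, SE 0.21, adjusted p = 0.022), a call that was lost with the muscle covariate (log2 fold change -0.54, adjusted p = 0.318). Cry1 was at 42.8, 79.8, 92.9 and 78.5 at 12 h and 113, 78.2, 197 and 110.2 at 24 h, with overlapping groups (log2 fold change 0.78, SE 0.42, adjusted p = 0.249). Per1 was at 135, 215, 236 and 160.2 at 12 h and 27.5, 45.8, 260.1 and 102 at 24 h, where B27 lay above all 12 h mice and the other 3 below them (log2 fold change -0.74, SE 0.52, adjusted p = 0.388). Over the fits without 1 mouse its log2 fold change ran from -1.6 to -0.44, and it was called in 1 of them. Leaving out 1 mouse lost calls that included Cry2 (B21, B27 or B28, adjusted p up to 0.0774).

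Dbp, Tef and Hlf, the PAR bZIP factors that carry the clock's output to metabolic genes, all fell without overlap. Dbp (chromosome 7, 45705088 to 45710203, plus strand; 18% of its exon length is shared with Sphk2 on the other strand) was at 876, 817, 658 and 356 at 12 h and 88.4, 74.6, 54.8 and 61.0 at 24 h. Its level was 9.81-fold lower at 24 h (log2 fold change -3.30, SE 0.54, adjusted p = 0.000643). Tef was at 1601, 1376, 1513 and 1118 at 12 h and 219.7, 281, 414 and 312 at 24 h (log2 fold change -2.19, SE 0.28, adjusted p = 5.5e-05). Hlf fell less, from 1133 ± 201 to 365 ± 59.1 (mean ± SD, n = 4; log2 fold change -1.63, SE 0.25, adjusted p = 0.000364). Nfil3, which competes for the D-box, was at 86.7, 74.3, 116 and 182 at 12 h and 106, 137, 469 and 294 at 24 h, and the groups overlapped (log2 fold change 1.17, SE 0.47, adjusted p = 0.113). When 1 mouse was left out, its log2 fold change ran from 0.70 to 1.46, and 1 of these fits called it.

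Ciart, a repressor of Bmal1 and Clock whose upstream bases are printed above, was at 91.8, 71.5, 44.8 and 40.0 at 12 h and 9.55, 6.02, 24.1 and 5.93 at 24 h (log2 fold change -2.42, SE 0.44, adjusted p = 0.0014; -3.11 on the log2 scale without B27). Bhlhe41, which competes for the E-box, was at 78.5, 117, 116 and 109 at 12 h and 50.1, 40.9, 25.1 and 22.9 at 24 h (log2 fold change -1.62, SE 0.37, adjusted p = 0.00835; with the muscle covariate -1.35, adjusted p = 0.136). Neither gene overlapped between times, and Bhlhe40, its relative, was not called (log2 fold change 0.62, adjusted p = 0.196). Nr1d2, one of the Rev-erb receptors that repress Arntl, was at 454, 421, 390 and 274 at 12 h and 86.0, 109.6, 85.5 and 101 at 24 h and fell to a level 4.04-fold lower (log2 fold change -2.02, SE 0.29, adjusted p = 0.000171). The other Rev-erb gene, Nr1d1, whose exons partly overlap those of Thra on the other strand (8.55% of its length), was at 543, 824, 366 and 444 at 12 h and 957, 642, 384 and 576 at 24 h, with overlapping groups (log2 fold change 0.23, SE 0.36, adjusted p = 0.728). Wee1, a kinase of the cell cycle under clock control, fell from 247 ± 73.0 to 132 ± 42.9 with overlap (log2 fold change -0.92, SE 0.26, adjusted p = 0.0272). Usp2, a deubiquitinase, fell from 947 ± 153 to 233 ± 106 without overlap (log2 fold change -2.01, SE 0.32, adjusted p = 0.000515). The call of Wee1 was lost with the muscle covariate (log2 fold change -0.61, adjusted p = 0.356). The 11 members that were not called had log2 fold changes from -0.74 to 1.17, with adjusted p of at least 0.113. Calls lost without 1 mouse included those of Wee1 (B19, B20, B21, B27 or B28, adjusted p up to 0.0943).

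**Figure D2:**
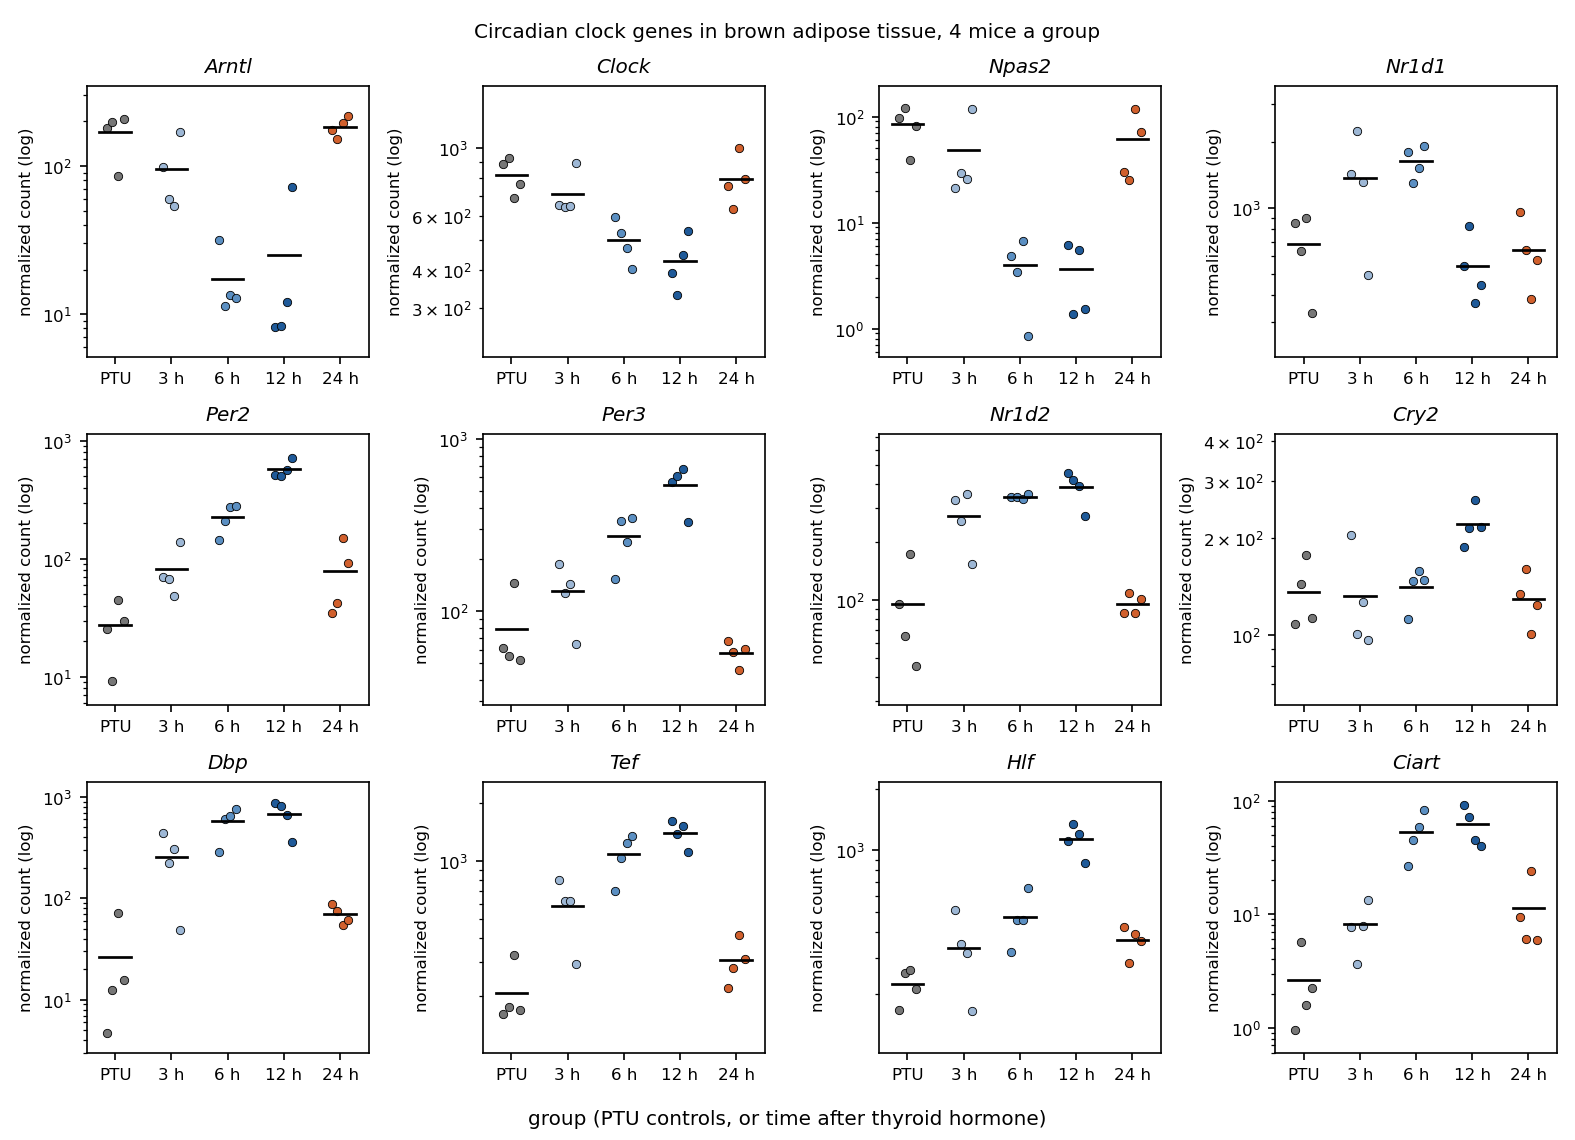
Normalized counts on a log axis in each of 4 mice (points) and their mean (bar) for PTU controls and at 3, 6, 12 and 24 h after TH. Per2, Per3, Nr1d2, Dbp, Tef, Hlf, Cry2 and Ciart are lower in every mouse at 24 h than in any at 12 h, Arntl, Clock and Npas2 are higher, and Nr1d1 overlaps.

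The steps between the earlier times were tested for the same genes. Between 6 h and 12 h, 384 genes were called (2.95%), 207 higher and 177 lower. The change from 12 h to 24 h differed from that from 6 h to 12 h for 536 genes (4.12%), of which 245 differed upwards and 291 downwards. The later step lasts 12 h and the earlier 6 h, so both the counts and the differences compare unequal lengths of time. The mice at 12 h enter both steps with opposite sign, so a high or low 12 h mouse moves both. By rank among genes called for it and with a mean count above 50, the largest downward differences were those of Per3, Per2 and Kit. Per3 went from 273 ± 89.7 at 6 h to 543 ± 148 at 12 h (mean ± SD, n = 4), a log2 fold change of 1.00 (adjusted p = 0.0786), and then fell, with a difference between the steps of -4.25 (SE 0.53, adjusted p = 0.000238). For Per2 the first step was 1.34 (adjusted p = 0.0394) and the difference was -4.15 (SE 0.57, adjusted p = 0.000735). Kit, a growth factor receptor, first rose by 2.77 (adjusted p = 0.00158) on the log2 scale. It was then at 313, 454, 450.1 and 243 at 12 h and 249.6, 289, 47.4 and 133 at 24 h (log2 fold change -1.05, SE 0.37, adjusted p = 0.0753), with a difference of -3.81 (SE 0.64, adjusted p = 0.00268). Among genes whose difference was called, the largest upward ones were those of the muscle genes Myh2, 6.96 (SE 1.53, adjusted p = 0.0144), Pgam2, 6.42 (SE 1.41, adjusted p = 0.0144), and Cox6a2, 6.31 (SE 1.63, adjusted p = 0.0327). The muscle markers summed to 4278 to 25170 normalized counts in the 4 mice at 6 h, above 3 of the 4 mice at 12 h, and what part this had was not tested further. With the muscle covariate 20 genes differed between the steps, and without B20 and B21 44 did. Leaving out single mice gave from 151 (without B21) to 880 (without B24).

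Genes of the fat cell's lipid store and of fatty acid handling fell between 12 h and 24 h more often than they rose. Of 26 tested genes of triglyceride synthesis and lipid droplets, 6 fell and 2 rose (median log2 fold change -0.30). Of 24 genes of lipolysis and fatty acid uptake 6 fell and 1 rose (-0.13), of 26 of mitochondrial fatty acid oxidation 5 fell and 1 rose (-0.22), and of 26 of the peroxisome 5 fell and 1 rose (-0.24). These counts stand beside 5.8% of all genes falling and 5.58% rising. Of the calls in these lists, 1, 4, 1 and 3 in that order were also made with the muscle covariate, all of them falls except that of Acox2 in the peroxisome, and 3, 3, 1 and 3 were also made without B20 and B21, all of them falls.

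Adipoq (chromosome 16, 23146536 to 23158028, plus strand), which encodes the hormone adiponectin, had normalized counts of 9426, 12360, 9695 and 9169 at 12 h and 3714, 4333, 3542 and 3477 at 24 h. The groups were far apart and the spread at 24 h was small, at a level 2.70-fold lower (log2 fold change -1.43, SE 0.12, adjusted p = 1.76e-06). Cidec, which makes lipid droplets fuse, was at 5526, 9394, 8247 and 4340 at 12 h and 1397, 2088, 2686 and 2176 at 24 h, 3.29-fold lower (log2 fold change -1.72, SE 0.22, adjusted p = 5.27e-05). Cidea, its counterpart in brown fat, fell from 12080 ± 1608 to 8052 ± 688 (mean ± SD, n = 4; log2 fold change -0.59, SE 0.11, adjusted p = 0.00246). Car3, carbonic anhydrase 3, which is abundant in fat cells and was named by its rank, was at 45950, 50650, 30080 and 26660 at 12 h and 10660, 8764, 4862 and 6402 at 24 h. Its level was 5.00-fold lower without overlap (log2 fold change -2.32, SE 0.31, adjusted p = 7.83e-05), after a lower level at 12 h than in PTU controls (125800 ± 41920). Against PTU its log2 fold change was -1.71 at 12 h (adjusted p = 0.000205) and -4.04 at 24 h (adjusted p = 1.04e-08). Dgat1, which completes triglycerides, fell from 840.4 ± 77.8 to 483 ± 70.7 (log2 fold change -0.80, SE 0.16, adjusted p = 0.00253). Gpat3 and Gpat4, which take the first step of glycerolipid synthesis, had log2 fold changes of -1.28 and -0.78 (adjusted p = 0.015 and 0.0116). Against these, Plin2, a coat protein of lipid droplets, rose from 3805 ± 293 to 6082 ± 1300 without overlap (log2 fold change 0.68, SE 0.17, adjusted p = 0.0118). Fitm1, which helps droplets form and is known for its expression in muscle, was at 9.18, 1.38, 0 and 3.08 at 12 h and 13.1, 27.7, 35.3 and 27.1 at 24 h (log2 fold change 2.81, SE 0.66, adjusted p = 0.00905). The log2 fold change of Fitm1 was 4.18 without B19, and with the muscle covariate it was 0.76, adjusted p = 0.382. Other calls lost with it were those of Plin2 (log2 fold change 0.54, adjusted p = 0.195), Cidea (-0.56, adjusted p = 0.0529), Dgat1 (-0.63, adjusted p = 0.0907), Gpat3 (-1.36, adjusted p = 0.0615) and Gpat4 (-0.73, adjusted p = 0.121). Without 1 of the mice, calls lost included those of Gpat3 (B19 or B28, adjusted p up to 0.0582).

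Lpl (chromosome 8, 68880491 to 68907448, plus strand), the lipase that frees fatty acids from circulating lipoproteins, was among the most abundant genes that fell. Its normalized counts were 116200, 104300, 105400 and 111900 at 12 h and 44730, 42490, 49840 and 47410 at 24 h. The 4 mice of each time lay close together and far from the other group, at a level 2.37-fold lower at 24 h (log2 fold change -1.25, SE 0.13, adjusted p = 1.48e-05), while the step from 6 h to 12 h was 0.11 (adjusted p = 0.704). The fatty acid transporters Cd36 (log2 fold change -0.60, SE 0.12, adjusted p = 0.00243), Slc27a1 (log2 fold change -0.91, SE 0.21, adjusted p = 0.00725) and Slc27a2 (log2 fold change -1.54, SE 0.24, adjusted p = 0.000383) all fell without overlap. Slc27a2 was at 2871, 1715, 3310 and 2871 at 12 h and 515, 721, 1524 and 933 at 24 h, with B27 the highest at 24 h. The carboxylesterase Ces1f fell as well (log2 fold change -0.74, SE 0.20, adjusted p = 0.0199). Angptl4, which inhibits Lpl, was at 216, 195, 367 and 222 at 12 h and 239, 391, 763 and 689.9 at 24 h, with B24 at 24 h inside the range of 12 h (log2 fold change 1.06, SE 0.31, adjusted p = 0.0316). The muscle covariate ended the calls of Angptl4 (log2 fold change 1.00, adjusted p = 0.232), Slc27a1 (-0.88, adjusted p = 0.0885) and Ces1f (-0.65, adjusted p = 0.172). Calls that depended on 1 mouse included those of Ces1f (B19, B20 or B27, adjusted p up to 0.0678) and Angptl4 (B19, B20, B23, B27 or B28, adjusted p up to 0.101).

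Acsl1 (chromosome 8, 46471037 to 46536051, plus strand), which activates fatty acids for oxidation and storage, was at 19210, 19240, 21330 and 15400 at 12 h and 6647, 7668, 11750 and 8952 at 24 h (log2 fold change -1.10, SE 0.16, adjusted p = 0.000224). In the peroxisome, the biogenesis factors Pex3 (log2 fold change -0.58, SE 0.10, adjusted p = 0.00135) and Pex19 (log2 fold change -0.61, SE 0.11, adjusted p = 0.00169) fell without overlap. Acot2, a mitochondrial thioesterase, fell from 545 ± 152 to 270.1 ± 60.8 (log2 fold change -1.02, SE 0.20, adjusted p = 0.00289). Its cytosolic relative Acot1 was at 57.1, 22.0, 68.8 and 21.6 at 12 h and 3.58, 2.41, 31.6 and 1.70 at 24 h, where B27 alone lay inside the 12 h range (log2 fold change -2.07, SE 0.66, adjusted p = 0.0439). Without B27 its log2 fold change was -4.06. The sequences of these thioesterases are close, so that reads may be split between them. Acox2, a peroxisomal oxidase of branched chains, rose from low counts, at 15.3, 20.6, 7.65 and 7.70 at 12 h and 81.2, 79.5, 37.1 and 24.6 at 24 h (log2 fold change 2.08, SE 0.48, adjusted p = 0.00851). The calls of Pex19 (log2 fold change -0.50, adjusted p = 0.0642), Acot2 (-0.91, adjusted p = 0.0643) and Acot1 (-2.41, adjusted p = 0.105) were lost with the muscle covariate. Arxes2, a fat cell gene of the endoplasmic reticulum named by its rank and near-identical in sequence to Arxes1, was at 1457, 929.9, 1129 and 648 at 12 h and 228, 218, 235 and 229 at 24 h, with little spread at 24 h (log2 fold change -2.20, SE 0.27, adjusted p = 5.27e-05). The fits without 1 mouse lost calls that included Acot1 (B19, B21, B24, B26 or B28, adjusted p up to 0.14).

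**Figure D3:**
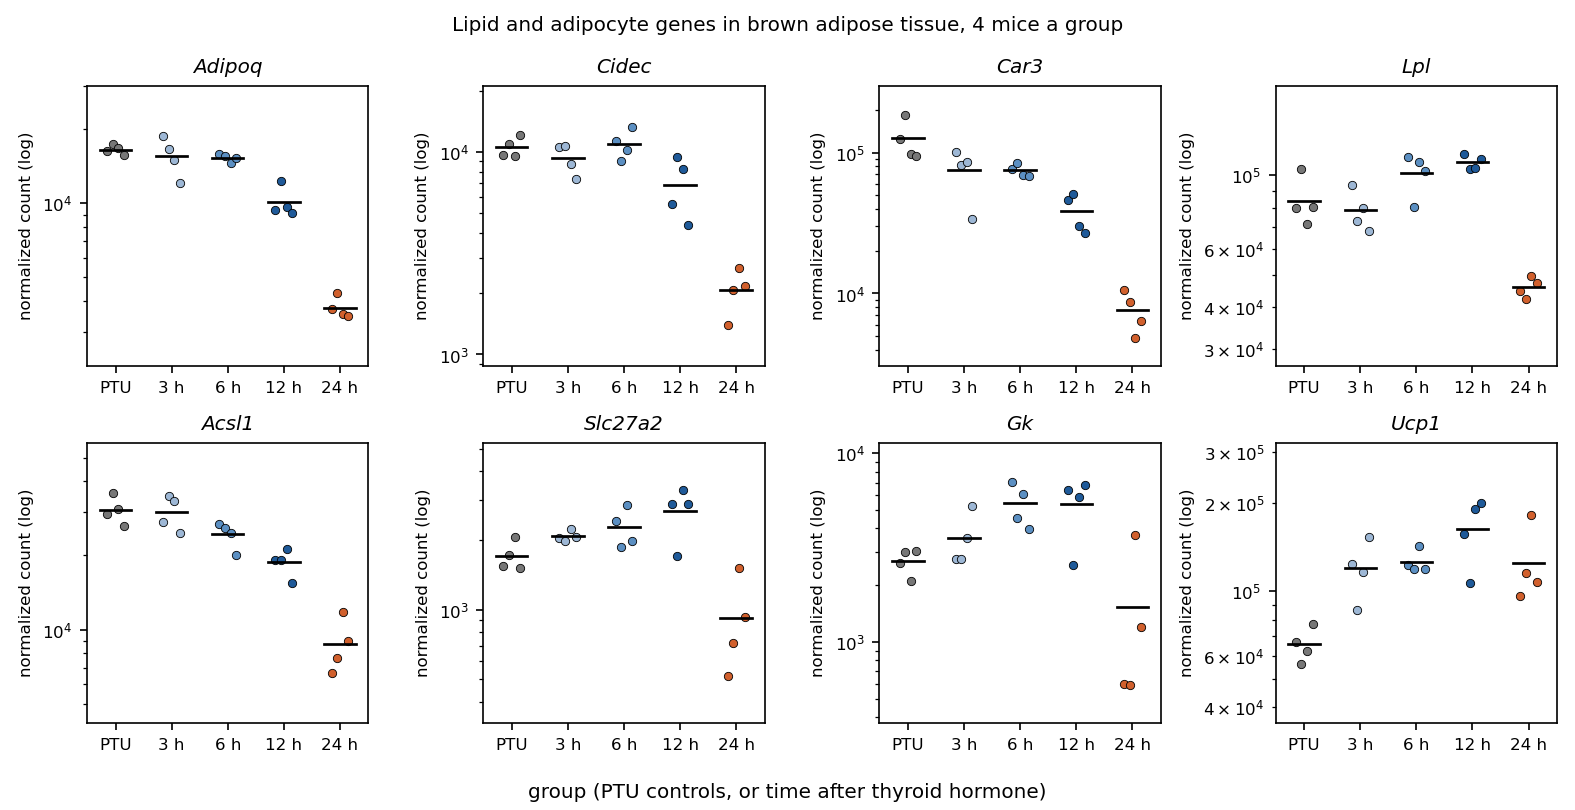
Normalized counts on a log axis in each of 4 mice (points) with their mean (bar) for PTU controls and at 3, 6, 12 and 24 h after TH. Adipoq, Cidec, Car3, Lpl, Acsl1 and Slc27a2 do not overlap between 12 h and 24 h, whereas 1 mouse at 24 h, B27, reaches the 12 h range of Gk and Ucp1 overlaps.

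Thermogenic genes were called about as often as all genes. Of 25 tested genes of brown fat identity and thermogenesis, 1 rose and 2 fell (12% called, against 11.4% of all genes), and the median log2 fold change was 0.07. Ucp1 (chromosome 8, 83290352 to 83298452, plus strand) was at 156600, 106600, 191100 and 201300 at 12 h and 96110, 115800, 182300 and 107200 at 24 h. B27 at 24 h lay among the higher 12 h mice and B20 at 12 h among the lower 24 h mice, and no change was called (log2 fold change -0.39, SE 0.21, adjusted p = 0.242). Dio2, which converts T4 to T3 inside the cell, was at 3527, 2257, 6312 and 6955 at 12 h and 934, 2735, 8167 and 3315 at 24 h, a wide spread at 24 h, and was not called (log2 fold change -0.33, SE 0.52, adjusted p = 0.728). The fits without 1 mouse gave Dio2 log2 fold changes from -1.01 to -0.007, none of them called. Relative to PTU controls, the log2 fold change of Ucp1 was 1.32 at 12 h (adjusted p = 7.77e-05) and 0.93 at 24 h (adjusted p = 0.00164). For Dio2 it was 1.70 at 12 h (adjusted p = 0.0221) and 1.37 at 24 h (adjusted p = 0.051). Gk, glycerol kinase, which lets brown fat reuse glycerol, was at 6413, 2572, 5877 and 6755 at 12 h and 603, 594, 3706 and 1204 at 24 h, with B27 at 24 h above B20 at 12 h (log2 fold change -1.82, SE 0.44, adjusted p = 0.0105; -2.73 on the log2 scale without B27). Cidea, counted in this list too, was the other member that fell. Of the 3 calls, those of Cidea and Adrb3 were lost with the muscle covariate.

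Adrenergic receptors and cAMP carry the signal that switches on thermogenesis. Of 21 tested genes of adrenergic and cAMP signalling 2 rose and 6 fell (38.1% called, against 11.4% of all genes, median log2 fold change 0.04), and with the muscle covariate 1 rose and 2 fell. Adrb3 (chromosome 8, 27225776 to 27250616, minus strand; 24.9% of its exon length is shared with Gm45470 on the other strand), the receptor for noradrenaline of fat cells, was at 620.2, 299, 528 and 253 at 12 h and 621, 645, 1724 and 1498 at 24 h. B24 at 24 h exceeded B19 at 12 h by less than 1 normalized count, so the groups barely separated (log2 fold change 1.40, SE 0.35, adjusted p = 0.0133), and with the muscle covariate the log2 fold change was 0.89, adjusted p = 0.289. In PTU controls it was at 3985 ± 179, relative to which its log2 fold change was -3.22 at 12 h (adjusted p = 1.36e-06) and -1.83 at 24 h (adjusted p = 0.000344). Downstream of the receptor, Adcy3, an adenylate cyclase, fell from 2371 ± 820.1 to 992 ± 238 (log2 fold change -1.26, SE 0.24, adjusted p = 0.00186; 22.1% of its exon length is shared with Cenpo on the other strand). Prkar2b, a regulatory subunit of protein kinase A, was at 19340, 15790, 19090 and 13920 at 12 h and 9108, 7264, 7598 and 9947 at 24 h (log2 fold change -1.01, SE 0.14, adjusted p = 0.000141). Crem, a cAMP-responsive transcription factor (log2 fold change -0.73, SE 0.17, adjusted p = 0.0085), and the phosphodiesterases Pde3b (log2 fold change -0.68, SE 0.16, adjusted p = 0.00979) and Pde7b (log2 fold change -2.02, SE 0.24, adjusted p = 3.66e-05), which break cAMP down, fell too. Pde7b was named by its rank, and is in no list. Arrb1, which uncouples receptors, rose from 177 ± 21.4 to 317 ± 43.2 (log2 fold change 0.84, SE 0.14, adjusted p = 0.00074). Crem (log2 fold change -0.78, adjusted p = 0.058) and Pde3b (-0.67, adjusted p = 0.0813) were not called with the covariate.

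Genes known to respond to TH were divided. Of 25 such genes, 20 were tested, of which 3 rose and 2 fell (25% called, against 11.4%), with a median log2 fold change of 0.18. Hr (chromosome 14, 70552212 to 70573548, plus strand), a corepressor that is induced by T3 in many tissues, was at 97.9, 158, 166 and 203 at 12 h and 263, 269.7, 307 and 375 at 24 h. All 4 mice at 24 h were above all at 12 h (log2 fold change 0.97, SE 0.23, adjusted p = 0.0105). Against PTU controls (12.9 ± 3.79) it was higher by 3.59 at 12 h (adjusted p = 5.08e-08) and 4.57 at 24 h (adjusted p = 7.22e-10). Klf9 (chromosome 19, 23141226 to 23168134, plus strand), a zinc finger factor that T3 induces too, went the other way, at 3448, 3431, 3603 and 3910 at 12 h and 2362, 2198, 2818 and 2258 at 24 h (log2 fold change -0.58, SE 0.10, adjusted p = 0.00087). It was above PTU controls (972 ± 90.8), by 1.89 at 12 h (adjusted p = 4.79e-11) and 1.31 at 24 h (adjusted p = 4.25e-09) on the log2 scale. Me1, malic enzyme, a classical TH target that makes NADPH, rose from 5273 ± 1342 to 9115 ± 2129, with B27 inside the 12 h range (log2 fold change 0.79, SE 0.21, adjusted p = 0.0177). Atp2a2, a calcium pump, fell from 3728 ± 141 to 2948 ± 282 (log2 fold change -0.34, SE 0.10, adjusted p = 0.0304). Its muscle form Atp2a1 was at 455, 44.0, 4.37 and 100.1 at 12 h and 435, 2267, 1498 and 1301 at 24 h (log2 fold change 3.15, SE 0.93, adjusted p = 0.0325). Its log2 fold change was 4.88 without B19, and with the muscle covariate it was 0.28, adjusted p = 0.712. Me1 (log2 fold change 0.80, adjusted p = 0.121) and Atp2a2 (-0.40, adjusted p = 0.111) were not called with it either, which left Hr and Klf9. Leaving out 1 mouse lost calls that included Me1 (B21, B23 or B26, adjusted p up to 0.0626), Atp2a2 (B19, B20, B21, B24, B26 or B28, adjusted p up to 0.0918) and Atp2a1 (B20, B21, B23, B26 or B28, adjusted p up to 0.0869).

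Other members were not called in the second 12 h. Slco4a1, an organic anion transporter, was at 297, 336, 291 and 369.6 at 12 h and 353, 409, 381 and 376 at 24 h, against 2.62 ± 1.00 in PTU controls and 321 ± 42.2 at 6 h (log2 fold change 0.24, SE 0.22, adjusted p = 0.526). Gpd2, the mitochondrial glycerol phosphate dehydrogenase, went from 17680 ± 1363 to 20500 ± 2838 (log2 fold change 0.21, SE 0.11, adjusted p = 0.223). Bcl3, a regulator of NF-kappaB, went from 340.2 ± 77.6 to 467 ± 78.2 (log2 fold change 0.46, SE 0.20, adjusted p = 0.13). Thrsp, a regulator of fat synthesis, went from 42690 ± 11340 to 55250 ± 14660 (log2 fold change 0.37, SE 0.21, adjusted p = 0.272). Pck1, which feeds glycerol synthesis in fat, was at 5421, 3502, 6689 and 6966 at 12 h and 847, 1340, 8880 and 3000 at 24 h, with B27 the highest and B24 the lowest of all 8 mice (log2 fold change -0.68, SE 0.45, adjusted p = 0.353). Leaving out 1 mouse gave log2 fold changes of Pck1 from -1.68 to -0.36, with a call in 1 of these fits. Adjusted p over the 15 members that were not called was at least 0.0591. Of 17 tested genes of receptors, transport and coregulators 1 rose and 2 fell (17.6% called, against 11.4% of all genes), and none of the 3 was called with the muscle covariate. The receptor genes Thra, 235 ± 24.6 to 268 ± 26.4 (log2 fold change 0.19, SE 0.13, adjusted p = 0.348), and Thrb, 505 ± 87.3 to 527 ± 41.3 (log2 fold change 0.06, SE 0.11, adjusted p = 0.775), overlapped between times. Rxra, the partner of TH receptors, rose from 221 ± 9.77 to 281 ± 39.5 (log2 fold change 0.34, SE 0.10, adjusted p = 0.0338). Tbl1xr1, a part of the corepressor complex, fell from 375 ± 54.2 to 240 ± 21.2 (log2 fold change -0.65, SE 0.13, adjusted p = 0.00337). Their log2 fold changes with the covariate were 0.32, adjusted p = 0.239 for Rxra and -0.63, adjusted p = 0.0514 for Tbl1xr1. Calls lost without 1 mouse included those of Rxra (B19, B20, B21, B23, B26, B27 or B28, adjusted p up to 0.0862).

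**Figure D4:**
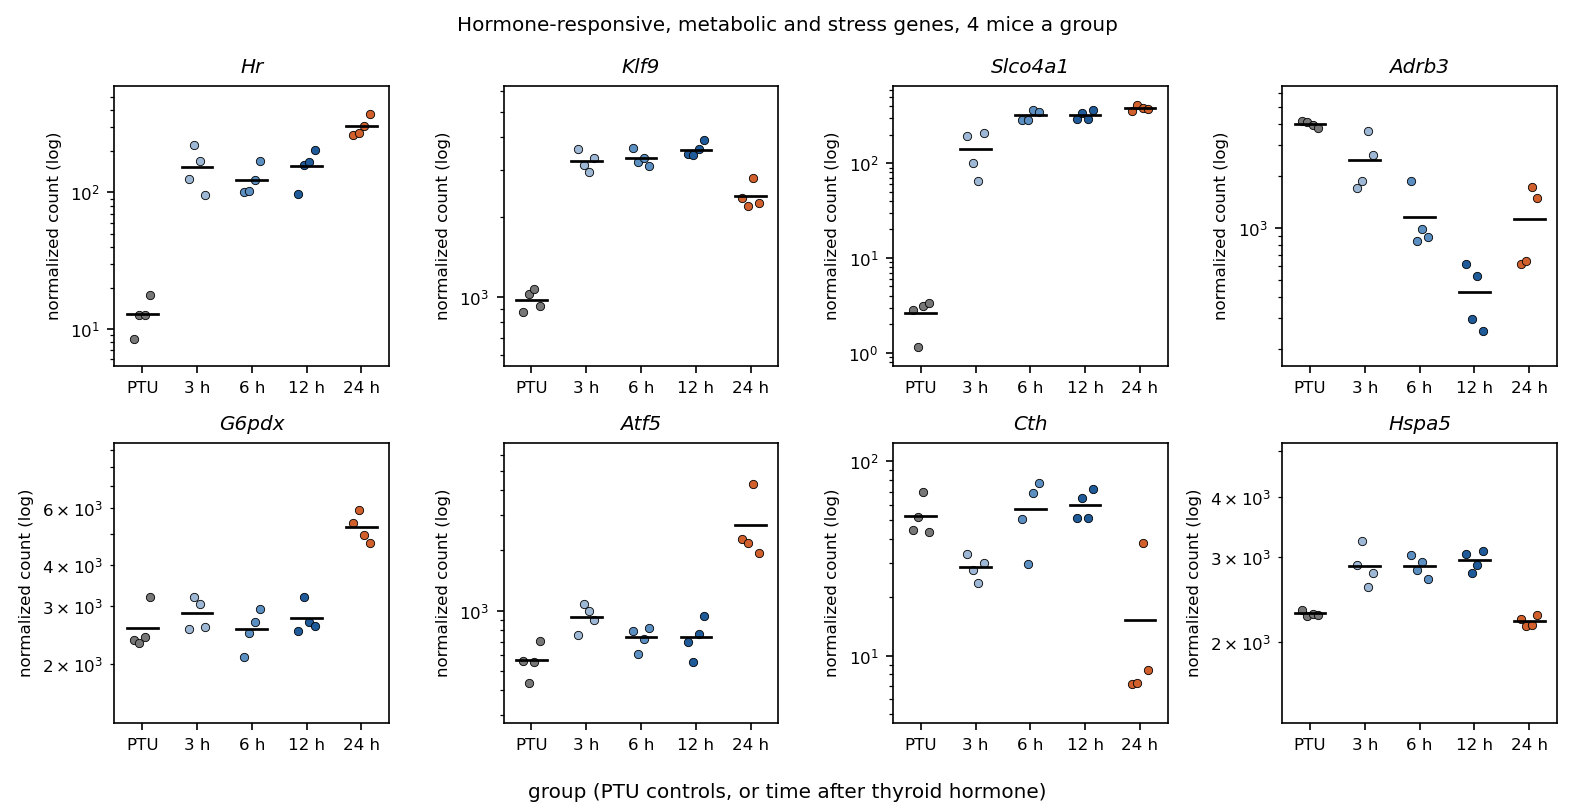
Normalized counts on a log axis in each of 4 mice (points) with their mean (bar) for PTU controls and at 3, 6, 12 and 24 h after TH. Hr, G6pdx and Atf5 are higher at 24 h than in any 12 h mouse and Klf9, Cth and Hspa5 are lower, Adrb3 barely separates, and Slco4a1 overlaps.

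Genes that supply NADPH and build fatty acids were more often higher than lower at 24 h. In the list of de novo lipogenesis 6 of 23 tested genes rose and 2 fell (34.8% called, against 11.4% of all genes), with a median log2 fold change of 0.40. Of the 8 calls, 3 were also made with the muscle covariate and 5 without B20 and B21. The dehydrogenases of the pentose phosphate pathway, which make NADPH, were both among them. G6pdx (chromosome X, 74409483 to 74429194, minus strand; 13.6% of its exon length is shared with Ikbkg on the other strand) was at 2508, 3198, 2691 and 2606 at 12 h and 5390, 5926, 4966 and 4689 at 24 h. The groups did not overlap (log2 fold change 0.93, SE 0.13, adjusted p = 0.000114). Pgd was at 2126, 2216, 1738 and 1562 at 12 h and 4239, 5691, 3461 and 3634 at 24 h, without overlap (log2 fold change 1.16, SE 0.19, adjusted p = 0.000709). Fads2, a fatty acid desaturase, rose from 39.0 ± 11.5 to 86.0 ± 21.5 (log2 fold change 1.14, SE 0.25, adjusted p = 0.00506). Elovl5, an elongase, rose from 2506 ± 278 to 3947 ± 808 (log2 fold change 0.66, SE 0.16, adjusted p = 0.0124). Acss2, which makes acetyl-CoA from acetate, rose from 1910 ± 678 to 3429 ± 1126 with overlap (log2 fold change 0.84, SE 0.27, adjusted p = 0.0486). Fasn, the fatty acid synthase itself, was at 30350, 68400, 47710 and 21530 at 12 h and 55690, 68610, 39520 and 57570 at 24 h (log2 fold change 0.40, SE 0.29, adjusted p = 0.406). The 2 members that fell were Slc25a1, the mitochondrial citrate carrier, from 5171 ± 1380 to 3088 ± 302 (log2 fold change -0.74, SE 0.16, adjusted p = 0.00517), and Insig1. The latter, which holds back the sterol-sensing factors, fell from 1252 ± 289 to 717 ± 238 (log2 fold change -0.81, SE 0.22, adjusted p = 0.022). Among these genes Fads2 (log2 fold change 1.20, adjusted p = 0.0654), Acss2 (1.12, adjusted p = 0.0841), Slc25a1 (-0.75, adjusted p = 0.059) and Insig1 (-0.86, adjusted p = 0.127) were not called with the covariate. Without 1 of the mice, calls lost included those of Elovl5 (B28, adjusted p = 0.0565), Acss2 (B19, B21, B23, B24, B26 or B28, adjusted p up to 0.135) and Insig1 (B20, B21, B27 or B28, adjusted p up to 0.0778).

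In cholesterol synthesis 4 of 24 tested genes fell and 1 rose (20.8% called, against 11.4% of all genes). Hsd17b7 was at 460, 341, 542 and 447 at 12 h and 258, 229, 171 and 169 at 24 h, without overlap (log2 fold change -1.12, SE 0.19, adjusted p = 0.000831), after a rise of 1.11 (adjusted p = 0.00493) from 6 h to 12 h. Stard4, a sterol transporter, fell from 114 ± 15.1 to 69.8 ± 16.2 (log2 fold change -0.72, SE 0.16, adjusted p = 0.0057). Insig1, described above, belongs to this list too. Dhcr7, the last enzyme of the pathway, rose from 342 ± 118 to 579 ± 203 with overlap (log2 fold change 0.76, SE 0.23, adjusted p = 0.0351). Only Hsd17b7 of the 5 was called with the muscle covariate, where the log2 fold change was -0.69, adjusted p = 0.0776 for Stard4 and 0.98, adjusted p = 0.0744 for Dhcr7. Of the 5, 2 were called in each of the 8 fits that left out 1 mouse. Calls that depended on 1 mouse included those of Dhcr7 (B19, B21, B23, B24 or B26, adjusted p up to 0.108).

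Of 17 tested genes of secreted factors of fat, 4 fell (against 5.8% of all genes) and 3 rose (against 5.58%), besides Bmp8b, which is given below. Next to Adipoq, those that fell were Rbp4, Nampt and Nrg4. Rbp4, the retinol carrier, was at 1477, 2099, 1813 and 1003 at 12 h and 824, 785, 611 and 621 at 24 h (log2 fold change -1.17, SE 0.22, adjusted p = 0.00182). Nampt, which makes a precursor of NAD, was at 4525, 5028, 4383 and 4048 at 12 h and 3284, 2862, 2752 and 2423 at 24 h (log2 fold change -0.67, SE 0.11, adjusted p = 0.000533). Nrg4, a growth factor of brown fat, was at 5107, 5054, 4651 and 5748 at 12 h and 2370, 2405, 4242 and 3249 at 24 h (log2 fold change -0.74, SE 0.15, adjusted p = 0.00337). None of these overlapped between times. Nampt had gone up from 6 h to 12 h, by 0.83 (adjusted p = 0.000395). Those that rose were Angptl4, Vegfa and Kng2. Bmp8b, which is known to raise the response of brown fat to noradrenaline, was at 9.18, 0, 5.46 and 10.8 at 12 h and 34.6, 42.1, 84.5 and 36.4 at 24 h. It passed the count filter only through the 24 h mice and was below it without B27, so that its call higher at 24 h is no support for a rise. DESeq2 did not call it (adjusted p = 0.0867). Vegfa, the angiogenic factor, rose from 2191 ± 216 to 3157 ± 621 without overlap (log2 fold change 0.53, SE 0.13, adjusted p = 0.0149). Kng2, a kininogen, rose from 365 ± 64.9 to 793 ± 139.8 without overlap (log2 fold change 1.12, SE 0.31, adjusted p = 0.0218). None of these 4 genes was called with the covariate (log2 fold change 0.51, adjusted p = 0.144 for Vegfa and 0.89, adjusted p = 0.264 for Kng2), while the falls other than that of Rbp4 (-1.02, adjusted p = 0.0506) were. The fits without 1 mouse lost calls that included Vegfa (B19 or B28, adjusted p up to 0.0509) and Kng2 (B20, B21 or B26, adjusted p up to 0.0632).

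In the integrated stress response 3 of 15 tested genes rose and 1 fell (26.7% called, against 11.4% of all genes, median log2 fold change 0.54). With the muscle covariate 1 rise (Atf5) and 1 fall (Cth) were called, the same counts as without B20 and B21, while Atf4 (log2 fold change 0.41, adjusted p = 0.429) and Slc7a1 (1.69, adjusted p = 0.149) were not called. Atf5 (chromosome 7, 44812256 to 44816658, minus strand), a transcription factor of that response, was at 697, 556, 768 and 944 at 12 h and 2279, 2173, 4305 and 1930 at 24 h. Every mouse at 24 h was above every mouse at 12 h (log2 fold change 1.85, SE 0.22, adjusted p = 2.81e-05). Atf4, its upstream factor, rose from 1241 ± 168 to 1959 ± 619 with overlap (log2 fold change 0.66, SE 0.19, adjusted p = 0.0312). Slc7a1, an amino acid transporter, rose with overlap from 13.6 ± 5.73 to 35.6 ± 26.2 (log2 fold change 1.47, SE 0.46, adjusted p = 0.041). Cth, which makes cysteine, was at 51.0, 64.7, 51.4 and 72.4 at 12 h and 7.16, 7.22, 38.1 and 8.47 at 24 h, and fell without overlap although B27 stood above the other 3 mice at 24 h (log2 fold change -1.90, SE 0.40, adjusted p = 0.00411). Without B27 the log2 fold change was -2.91. Leaving out 1 mouse lost calls that included Atf4 (B19, B20, B21, B26 or B27, adjusted p up to 0.106) and Slc7a1 (B19, B20, B21, B27 or B28, adjusted p up to 0.199).

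Endoplasmic reticulum chaperones and genes of the unfolded protein response gave 4 falls and no rise among 24 tested genes (16.7% called, against 11.4% of all genes called and 5.8% falling), and the same 4 were called with the muscle covariate, without B20 and B21, and without any 1 of the compared mice. Hspa5 (chromosome 2, 34771970 to 34777547, plus strand), the major chaperone of that compartment, was at 3047, 2784, 2895 and 3091 at 12 h and 2234, 2160, 2169 and 2267 at 24 h. The change was small, with little spread (log2 fold change -0.42, SE 0.08, adjusted p = 0.00186). Canx, calnexin, fell from 2396 ± 176 to 1604 ± 129 (log2 fold change -0.58, SE 0.11, adjusted p = 0.00154). Herpud1, which acts in protein disposal, fell from 1659 ± 199 to 983 ± 106 (log2 fold change -0.76, SE 0.12, adjusted p = 0.000396). Dnajb9, a cochaperone of Hspa5, fell from 1320 ± 153 to 719.8 ± 134 (log2 fold change -0.87, SE 0.15, adjusted p = 0.00109).

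Cytosolic heat shock proteins gave 6 rises and no fall among 19 tested genes (31.6% called, against 11.4% of all genes, median log2 fold change 0.47), none of which was called with the muscle covariate or without B20 and B21. The small heat shock protein Hspb1 was at 129.5, 109, 139 and 266 at 12 h and 269, 312, 619 and 688 at 24 h (log2 fold change 1.58, SE 0.34, adjusted p = 0.00571). Hspb6 rose from 349.5 ± 119 to 815 ± 125 (log2 fold change 1.22, SE 0.28, adjusted p = 0.00766). Hspb8 rose from 349 ± 26.9 to 590.4 ± 162 (log2 fold change 0.76, SE 0.21, adjusted p = 0.0243). Cryab, an alpha-crystallin, rose from 221 ± 166 to 639 ± 129 with B19 at 12 h inside the 24 h range (log2 fold change 1.52, SE 0.39, adjusted p = 0.0155; 2.21 on the log2 scale without B19). Several of these are abundant in muscle too. Of the large chaperones, Hsp90aa1 had a log2 fold change of 1.14 (adjusted p = 0.0356) and Hsp90ab1 of 0.68 (adjusted p = 0.0296). With the covariate the log2 fold change was 1.14, adjusted p = 0.205 for Hspb1, 0.50, adjusted p = 0.359 for Hspb6, 0.44, adjusted p = 0.424 for Hspb8 and 0.52, adjusted p = 0.38 for Cryab. Among 21 genes of oxidative stress defence 2 rose and 1 fell (14.3% called, near the 11.4% of all genes). Gclm, for glutathione synthesis, was at 651, 664, 439 and 542 at 12 h and 1630, 1358, 688 and 796 at 24 h without overlap (log2 fold change 0.96, SE 0.20, adjusted p = 0.00477). Srxn1, sulfiredoxin, rose from 518 ± 58.3 to 955 ± 352 (log2 fold change 0.88, SE 0.22, adjusted p = 0.0143). Nfe2l2, which encodes the factor Nrf2 that is known to drive both, fell from 1933 ± 271 to 1245 ± 113 (log2 fold change -0.63, SE 0.12, adjusted p = 0.0014), without overlap. Of these, Srxn1 was not called with the covariate (log2 fold change 0.88, adjusted p = 0.113). Calls lost without 1 mouse included those of Hspb8 (B20, B21, B26 or B27, adjusted p up to 0.0854), Cryab (B21, adjusted p = 0.057), Hsp90aa1 (B19, B20, B21, B27 or B28, adjusted p up to 0.134), Hsp90ab1 (B19, B20, B21, B27 or B28, adjusted p up to 0.12) and Srxn1 (B26, adjusted p = 0.0613).

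In glucose uptake and glycolysis 4 of 28 tested genes rose and 1 fell (17.9% called, against 11.4% of all genes), and in glycogen metabolism 2 of 21 rose and 1 fell (14.3%). Slc16a1, a transporter of lactate and pyruvate, rose from 3978 ± 977 to 6608 ± 559 (log2 fold change 0.73, SE 0.14, adjusted p = 0.00165), the phosphofructokinases Pfkm and Pfkp by 0.61 and 0.60 on the log2 scale (adjusted p = 0.0217 and 0.0296). Pdk1, which turns pyruvate oxidation down, fell from 1214 ± 405 to 768 ± 92.0 with overlap (log2 fold change -0.66, SE 0.18, adjusted p = 0.0215). Of the 5 calls in glucose uptake and glycolysis, which include Eno3, only Slc16a1 was made with the muscle covariate, and none without B20 and B21. The log2 fold change with the covariate was 0.41, adjusted p = 0.346 for Pfkm, 0.49, adjusted p = 0.278 for Pfkp and -0.54, adjusted p = 0.226 for Pdk1. Pygl, the liver form of glycogen phosphorylase, was at 4134, 5687, 4107 and 3536 at 12 h and 7292, 7096, 7253 and 6852 at 24 h (log2 fold change 0.71, SE 0.15, adjusted p = 0.00541). Gys2, the liver form of glycogen synthase, was at 1378, 1436, 1249 and 1007 at 12 h and 838, 839, 551 and 574 at 24 h (log2 fold change -0.86, SE 0.16, adjusted p = 0.00184). Neither overlapped between times. The muscle forms Eno3 (log2 fold change 2.64, SE 0.65) and Pygm (log2 fold change 2.83, SE 0.72) rose with the muscle markers and were not called with the covariate (log2 fold change 0.48, adjusted p = 0.593 and 0.55, adjusted p = 0.513). Without B19 their log2 fold changes were 3.48 and 4.12. Without 1 of the mice, calls lost included those of Pfkm (B20 or B26, adjusted p up to 0.0701), Pfkp (B19, B20, B21, B26 or B27, adjusted p up to 0.0774), Pdk1 (B19, B20, B21, B27 or B28, adjusted p up to 0.0843) and Pygm (B21, adjusted p = 0.0544).

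Lists of mitochondrial machinery had called shares below the 11.4% of all genes, some of them near it. No member was called by edgeR among 16 mitochondrially encoded genes tested (median log2 fold change -0.25, smallest adjusted p 0.0809, with 4 at an unadjusted p under 0.05 and 1 called by DESeq2). Called genes made up 1 of 39 nuclear complex I subunits (2.56%), 4 of 45 subunits of complexes II to V (8.89%), 2 of 76 mitochondrial ribosomal proteins (2.63%) and 1 of 25 of the TCA cycle (4%). Suclg1, a subunit of succinyl-CoA ligase, was the latter, from 4758 ± 452 to 6047 ± 513 (log2 fold change 0.35, SE 0.10, adjusted p = 0.0308). A pair of called subunits move with the muscle markers or rest on low counts. Cox6a2, the muscle form of a complex IV subunit, was at 45.9, 2.75, 0 and 13.9 at 12 h and 64.5, 184, 140.2 and 129.7 at 24 h. Atp5g1, a subunit of ATP synthase, was at 16.3, 12.4, 15.3 and 9.24 at 12 h and 19.1, 39.7, 48.3 and 35.6 at 24 h. None of the calls among complex subunits or in the TCA cycle was made with the muscle covariate (log2 fold change 0.33, adjusted p = 0.217 for Suclg1, 1.02, adjusted p = 0.266 for Atp5g1 and 0.27, adjusted p = 0.78 for Cox6a2). Tfam, which maintains mitochondrial DNA, fell from 712 ± 98.2 to 524 ± 52.7 (log2 fold change -0.44, SE 0.13, adjusted p = 0.0323). Tfb2m, which helps the mitochondrial RNA polymerase start transcription, fell from 135 ± 21.9 to 95.1 ± 21.1 (log2 fold change -0.51, SE 0.14, adjusted p = 0.0228). They were the 2 calls of edgeR among 23 genes of mitochondrial biogenesis (8.7%, against 11.4% of all genes), of which DESeq2 called 4. Neither Tfam nor Tfb2m was called with the muscle covariate (log2 fold change -0.53, adjusted p = 0.102 and -0.51, adjusted p = 0.157). Cytosolic ribosomal proteins (1 of 80, 1.25%) and proteasome subunits (1 of 37, 2.7%) were called below the 11.4% of all genes. Of the other lists, 2 of 20 genes of branched-chain amino acid catabolism (10%), 2 of 25 of autophagy and the lysosome (8%) and 1 of 19 interferon stimulated genes (5.26%) fell. None of them rose, and 5.8% of all genes fell, so these counts lie near that share. Calls that depended on 1 mouse included those of Suclg1 (B19, B20, B21, B24 or B26, adjusted p up to 0.0991), Cox6a2 (B20, B21, B23, B26, B27 or B28, adjusted p up to 0.0959), Tfam (B19, B21, B26, B27 or B28, adjusted p up to 0.103) and Tfb2m (B19, B20, B24 or B28, adjusted p up to 0.0837).

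Vessels, matrix and other cells were sampled through their markers. Of 14 endothelial markers 3 rose (21.4%, against 11.4% of all genes called), and the sum of all 14 was 5011 to 6549 at 12 h and 5997 to 7033 at 24 h. Cldn5, the claudin of endothelial junctions, was at 22.4, 30.3, 26.2 and 30.8 at 12 h and 83.6, 92.7, 237 and 222 at 24 h, 5.91-fold higher without overlap (log2 fold change 2.56, SE 0.31, adjusted p = 3.66e-05), against 169.5 ± 25.1 in PTU controls. Kdr, the receptor of Vegfa, rose from 732 ± 44.3 to 1013 ± 108 (log2 fold change 0.47, SE 0.12, adjusted p = 0.0131). Egfl7, a factor that endothelium secretes, rose from 86.8 ± 19.7 to 131 ± 20.9 (log2 fold change 0.59, SE 0.16, adjusted p = 0.0214). Among 23 genes of collagens and matrix 3 rose and 2 fell (21.7% called). Col5a3, a collagen chain, was at 38.8, 15.1, 31.7 and 38.5 at 12 h and 148, 207, 100.3 and 131 at 24 h (log2 fold change 2.22, SE 0.28, adjusted p = 5.52e-05). Lox, which crosslinks collagen, was at 166, 162, 172 and 173 at 12 h and 441, 324, 447 and 305 at 24 h (log2 fold change 1.17, SE 0.20, adjusted p = 0.000893). Serpinh1, a collagen chaperone, was at 1231, 1167, 1173 and 1645 at 12 h and 1816, 2273, 1977 and 2648 at 24 h (log2 fold change 0.74, SE 0.14, adjusted p = 0.00169). None of these overlapped. Timp3, an inhibitor of matrix proteases, fell from 2463 ± 303 to 1472 ± 189 (log2 fold change -0.74, SE 0.13, adjusted p = 0.0011). It shares 21.3% of its exon length with Syn3 on the other strand. Lum, lumican, fell too (log2 fold change -0.50, SE 0.15, adjusted p = 0.0352). Of 10 preadipocyte and fibroblast markers 1 rose, Pdgfra, and 1 fell, Lum (20% called, against 11.4% of all genes). The sum of all 10 overlapped, at 1966 to 2726 at 12 h and 2227 to 3051 at 24 h. Pdgfra rose from 79.1 ± 7.78 to 128 ± 12.5 (log2 fold change 0.70, SE 0.17, adjusted p = 0.0096). Cd68 was the only call among 13 tested macrophage and neutrophil markers (7.69%, against 11.4% of all genes). It rose from 51.3 ± 20.5 to 93.4 ± 30.5 with overlap (log2 fold change 0.90, SE 0.26, adjusted p = 0.0318). With the muscle covariate only Cldn5, Col5a3 and Lox were called of the genes named here, and Kdr (log2 fold change 0.46, adjusted p = 0.117), Egfl7 (0.50, adjusted p = 0.229), Serpinh1 (0.63, adjusted p = 0.0712), Timp3 (-0.49, adjusted p = 0.0833), Lum (-0.65, adjusted p = 0.0654), Pdgfra (0.51, adjusted p = 0.212) and Cd68 (0.67, adjusted p = 0.324) were not. The sum of 17 macrophage and neutrophil markers was 499 to 1226 at 12 h and 900.3 to 1745 at 24 h. EdgeR called no lymphocyte, red blood cell or nerve marker out of 2, 5 and 7 tested, of which 0, 0 and 2 had an unadjusted p under 0.05 and 0, 0 and 1 were called by DESeq2. The fits without 1 mouse lost calls that included Egfl7 (B20, B26 or B28, adjusted p up to 0.0731), Lum (B19, B20, B24, B26 or B27, adjusted p up to 0.111) and Cd68 (B19, B20, B21, B27 or B28, adjusted p up to 0.109).

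Among signals from outside the cell, 3 of 25 genes of insulin and growth hormone signalling rose and none fell (12% called, about the 11.4% of all genes), and none was called with the muscle covariate. Ddit4l, an inhibitor of the growth kinase mTORC1 that muscle also expresses, was at 39.8, 28.9, 14.2 and 12.3 at 12 h and 139, 185, 57.6 and 169.5 at 24 h without overlap (log2 fold change 2.49, SE 0.53, adjusted p = 0.00493). Igfbp3, a carrier of insulin-like growth factors, rose from 138 ± 31.6 to 287 ± 129 (log2 fold change 1.07, SE 0.34, adjusted p = 0.0457). Socs3, a cytokine signalling inhibitor, was at 6.12, 1.38, 5.46 and 6.16 at 12 h and 5.97, 13.2, 29.7 and 13.6 at 24 h, low counts that overlapped (log2 fold change 1.69, SE 0.48, adjusted p = 0.026). Socs3 was also the 1 call of edgeR among 22 immediate early genes (4.55%, against 11.4% of all genes), of which DESeq2 called 2. With the covariate the log2 fold change was 1.17, adjusted p = 0.277 for Ddit4l, 1.02, adjusted p = 0.282 for Igfbp3 and 1.33, adjusted p = 0.263 for Socs3. Of 16 glucocorticoid responsive genes 1 rose, Angptl4, and 2 fell (18.8% called, against 11.4%). Klf15, a zinc finger factor of amino acid and lipid metabolism, was at 1174, 541, 921 and 1027 at 12 h and 289, 223, 469 and 331 at 24 h, without overlap (log2 fold change -1.48, SE 0.25, adjusted p = 0.00073). Sult1a1, a sulfotransferase, fell from 764 ± 193 to 394 ± 80.2 (log2 fold change -0.95, SE 0.18, adjusted p = 0.00214). Of these 3 calls that of Klf15 was also made with the muscle covariate, and those of Sult1a1 (log2 fold change -0.54, adjusted p = 0.128) and Angptl4 (1.00, adjusted p = 0.232) were not. Leaving out 1 mouse lost calls that included Igfbp3 (B19, B20, B21, B23, B26, B27 or B28, adjusted p up to 0.164) and Socs3 (B20, B21 or B27, adjusted p up to 0.111).

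By rank alone, where a gene had to be called, average more than 50 normalized counts over the 8 mice and keep its groups apart, the 10 largest increases were Myh2 (3.60 ± 0.81), Pgam2 (3.33 ± 0.75), Acta1 (3.10 ± 0.99), Ckmt2 (3.07 ± 0.81), Npnt (3.03 ± 0.32), Hrc (3.03 ± 0.77), Arntl (3.00 ± 0.51), Cox6a2 (2.95 ± 0.88), Dtx4 (2.78 ± 0.29) and Mb (2.76 ± 0.66), as log2 fold change ± SE. The values and their order move with single mice. Without B19 the log2 fold change was 5.42 for Myh2, 4.79 for Pgam2, 4.85 for Acta1, 4.48 for Ckmt2, 4.51 for Hrc, 4.70 for Cox6a2 and 3.69 for Mb. All but Npnt, Arntl and Dtx4 are known from skeletal muscle, and 3 of those 7, Myh2, Acta1 and Mb, are among the markers that make up the muscle covariate. The other 4 were not called with it (log2 fold change 0.85, adjusted p = 0.203 for Pgam2, 0.46, adjusted p = 0.591 for Ckmt2, 0.47, adjusted p = 0.477 for Hrc and 0.27, adjusted p = 0.78 for Cox6a2). Npnt (chromosome 3, 132881745 to 132950291, minus strand), nephronectin, a matrix protein that binds integrins, was at 20.4, 11.0, 16.4 and 30.8 at 12 h and 164, 154, 113 and 207 at 24 h (log2 fold change 3.03, SE 0.32, adjusted p = 1.48e-05). Dtx4 (chromosome 19, 12466338 to 12501454, minus strand), a ubiquitin ligase of the Notch pathway, was at 47.9, 33.0, 59.0 and 83.2 at 12 h and 338, 369.6, 415 and 392 at 24 h (log2 fold change 2.78, SE 0.29, adjusted p = 1.38e-05). Both stayed called with the muscle covariate (Npnt 2.70, adjusted p = 0.0016, and Dtx4 2.70, adjusted p = 0.00048). That the groups lie apart was part of the rule, so it is no separate support. The 12 h means of Npnt, Myh2, Pgam2, Ckmt2, Hrc, Cox6a2 and Arntl were below 50. These genes therefore passed the count limit of the ranking only through the 24 h mice. The 10 largest decreases were Dbp, Per3, Lrrc52, Per2, Car3, Arxes2, Tef, Pde7b, Nr1d2 and Usp2, all of which were called with the covariate too. Lrrc52, a regulatory subunit of potassium channels, was at 63.2, 35.8, 69.9 and 228 at 12 h and 4.78, 6.02, 21.4 and 7.63 at 24 h (log2 fold change -3.22, SE 0.59, adjusted p = 0.00154), with B23 far above the other mice at 12 h. It averaged more than 50 over the 8 mice only through B23, and its log2 fold change was -2.45 without B23 and -3.90 without B27. Cell division genes gave a single call among 16 tested (6.25%, against 11.4% of all genes), Ccne2, a cyclin, at 38.8, 23.4, 18.6 and 21.6 at 12 h and 8.36, 2.41, 9.29 and 6.78 at 24 h. It passed the count filter only through the 12 h mice, so that its call is no support for a fall. Calls lost without 1 mouse included those of Acta1 (B20, B21, B23, B26, B27 or B28, adjusted p up to 0.112), Ckmt2 (B20 or B21, adjusted p up to 0.0615) and Hrc (B21, adjusted p = 0.0511).

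**Figure D5:**
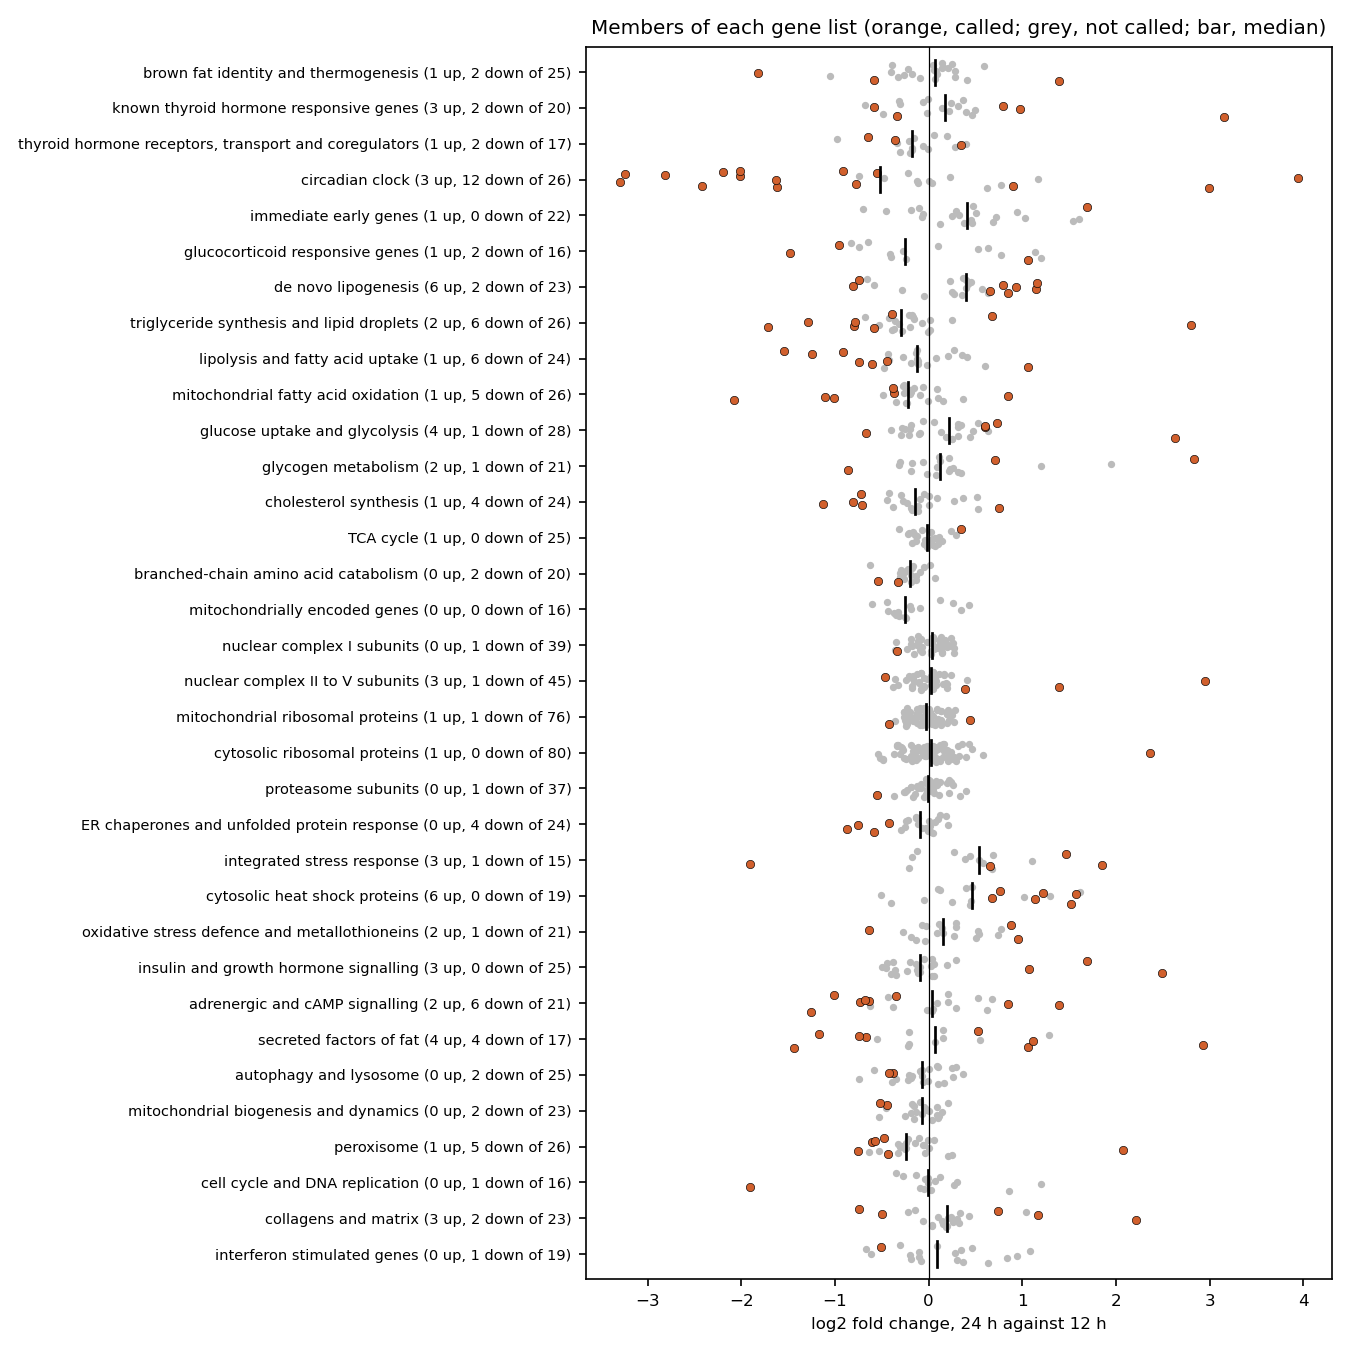
Log2 fold change at 24 h against 12 h of each tested member of 34 gene lists, orange where called and grey where not, with the list's median as a bar and its counts beside its name. Called clock genes spread from -3.30 to 3.95, called endoplasmic reticulum chaperones lie below 0 and called heat shock proteins above 0, while most members of the mitochondrial and ribosomal lists lie close to 0, apart from Cox6a2 at 2.95 and 2 other called members to the right of 1.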

How the data were processed

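Total RNA of BAT was sequenced by the authors after library preparation with the SENSE kit. The deposited values are raw counts of reads per gene. Per the labels' processing notes, reads were aligned with Bowtie2 (version 2.3.2.2) to mm10, and the authors counted them with htseq-count and compared groups in DESeq2. The gene annotation and the strand setting of the counting are not given in the sources used here, so reads of genes that overlap on opposite strands may not be separable. More than 10% of the exon length is shared with another gene for 16 of the 138 named genes, whose values are uncertain to that extent (Dbp, Bhlhe41, Atp2a1, Bmp8b, Adrb3, Gpat3, Fitm1, Slc27a2, Cox6a2, Mb, G6pdx, Cryab, Adcy3, Timp3, Pfkm and Ccne2). Of 55341 symbols, 55327 were found in GENCODE vM21 (GRCm38), from which gene positions were taken. A further 14 were symbols turned into dates by a spreadsheet, with 0.0325% of the counts of the 8 mice.

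The 20 WT mice of 5 groups were fitted together in R 4.3.3 with edgeR 4.0.16 (quasi-likelihood F-test, TMM scaling), for genes with a mean normalized count above 10 (13003 genes), and p-values were adjusted by the method of Benjamini and Hochberg over all of them. The threshold was an adjusted p of 0.05. DESeq2 1.42.0 was an alternative, as were other scalings, filters and sets of mice. The procedure was tested on simulated data. The 12 pairs of mice within a group differed by more than counting error (chi-square per degree of freedom 8.08 to 55.4), so none was a library deposited more than once. Each label names a separate mouse.

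Genes were named by rank (10 in each direction), by list (up to 3 in each direction with the lowest p) or as clock or TH-responsive genes. Nrg4, Gpat3, Gpat4, Slc27a1, Ces1f, Acot1, Elovl5, Acss2, Hspb8, Hsp90aa1, Hsp90ab1, Hspa5, Pde3b and Pfkp were named after their values were seen. Some genes that the rule names are not reported here. The comparison and the gene lists were chosen with earlier results of these data known. Differences and SE are on the log2 scale of the fit, and values of single mice are normalized counts.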

Additional observations from a re-analysis of the deposited data

Results flagged for a closer look

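In 280 sets of 4 mice, 1 for each named gene and time and for a few library measures, the gap between the most distant mouse and its nearest neighbour was compared with the whole range of the set. It exceeded Dixon's critical value for 4 values in 18 sets (6.43%). The share of the range taken by the gap follows each gene in parentheses. Chance gives about 1 in 20. At 12 h, B19 stood above the other mice for Pgam2 (0.847), Hspb8 (0.872), Eno3 (0.946) and Pygm (0.921), B20 above for Adipoq (0.835), B21 above for Thra (0.844) and Angptl4 (0.846), and B23 above for Arntl (0.94) and Serpinh1 (0.866). B20 stood below the others for Plin2 (0.92), Pde7b (0.831) and Socs3 (0.854). At 24 h, B27 stood above the others for Bmp8b (0.849), Acot1 (0.937), Atf5 (0.853) and Cth (0.958), B26 above for Fads2 (0.837), and B24 below for Cryab (0.861).

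The change from 12 h to 24 h differed from that from 6 h to 12 h, a shorter step, by the edgeR test of the difference for 536 genes. Among those with a mean count above 50, the log2 fold changes of both steps differed most, upwards or downwards, by -4.15 for Per2, -4.25 for Per3, -3.81 for Kit, 6.96 for Myh2, 6.42 for Pgam2 and 6.31 for Cox6a2.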

How the results depend on the processing

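Of 1480 genes called between 12 h and 24 h, 1430 were also called by DESeq2 (1644 in all). A fit of the 8 compared mice alone called 790, 458 higher and 332 lower at 24 h. The muscle covariate left 383 (187 higher, 196 lower), and leaving out B20 and B21 left 512 (229 higher, 283 lower). Both were chosen after seeing the data, and the cause was not tested. The latter also has fewer mice, and the muscle level used as covariate differed with time. As mean log2 this level was 7.11, 3.08, 1.61 and 4.63 at 12 h and 6.68, 8.59, 8.11 and 8.20 at 24 h. Some calls were lost at a like estimate (Me1, 0.79 without and 0.80 with the covariate). Others were lost at a smaller one (Hspb6, 1.22 and 0.50). A limit of 1 on the log2 fold change left 383 by construction (248 higher, 135 lower). Without 1 mouse each, counts ran from 889 (without B21) to 1700 (without B24), with 940 without B19 and 948 without B28. Those higher ran from 419 to 844 and those lower from 438 to 856. The 536 genes whose later change differed from the earlier one became 810 with DESeq2, 338 with only the 12 mice concerned, 20 with the muscle covariate, 44 without B20 and B21, and from 151 (without B21) to 880 (without B24) without 1 mouse. The mitochondrial share differed by -6.909 percentage points without B24 (exact permutation test, p = 0.0286, the smallest that can be reached), and by -6.909 to -2.936 over the fits without 1 mouse. Nr1d1, not called, ranged from -0.027 (without B24) to 0.50 (without B20) and Thrb, not called, from -0.040 (without B23) to 0.15 (without B21) on the log2 scale. Depth was 7805938 counts in the shallowest mouse, which limits genes with few counts such as Bmp8b, Npas2 and Socs3. No paired analysis was possible because the mice at 12 h and at 24 h share no mouse number.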
